A study of Mus musculus with 6 samples.

Results

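Complement is a cascade of plasma and tissue proteins that marks particles and cell remains for removal. C1q, built from the chains of C1qa, C1qb and C1qc, starts the classical pathway by binding its target, and the proteases it carries cleave C4 and C2, which together cleave C3, the component on which all routes into the cascade meet. Fragments of C3 and C5 act on the receptors C3ar1 and C5ar1, and Serping1, the C1 inhibitor, blocks the first proteases. In the brain, C1q is made mainly by microglia, C4 and C3 are made in large part by glia, and deposited C3 fragments tag synapses for engulfment during development.

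The 9 genes described here are the 6 components C1qa, C1qb, C1qc, C3, C4a and C4b, the 2 receptors C3ar1 and C5ar1 and the 1 regulator Serping1, of 38355 genes listed in the counts. They were chosen by name with earlier results of this age comparison known, and the fall of C4b and C3 was among them, so their age differences are given as descriptions, without a test over the 9. All 9 were found by their Ensembl identifiers and all 9 passed the filter on low counts, which left 17120 genes in the fit.

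RNA sequencing of polyadenylated RNA was performed on whole cortical hemispheres of C57BL/6 mice without further treatment or allele, 3 samples at 6 months and 3 at 16 months of age. The study counts 3 brains at each age. The names given to the deposited tables carry the same 3 codes for all samples of an age, so the labels do not settle whether a sample is 1 animal or drawn from a pool, in which case the SDs and P-values would describe technical spread. The sample labels give no sex, while the study's section on cell sorting says that only males went into its RNA sequencing. One passage of the labels calls the younger age 3 months, and the 6 months of the titles and of the study were used. In whole tissue, fewer cells of a type and less RNA per cell cannot be told apart.

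The libraries held between 29797253 and 46519280 counts on genes, so that 3 counts stand for 0.0645 to 0.101 CPM (counts scaled to the same library total). Log2 levels scattered more at 16 months (median SD 0.13 over genes) than at 6 months (0.063). A tilt of the levels with GC content ran in opposite directions in replicates 1 and 2 of 16 months, where the difference of a gene's log2 level from the age mean correlated with its GC content across genes with r = 0.588 and −0.582, against −0.130 to 0.160 at 6 months. Over all genes the median log2 fold change was 0.0014 and 49.7% of the fold changes were negative, a balance that the normalization itself sets. In the quasi-likelihood fit of edgeR, with P-values adjusted after Benjamini-Hochberg over all tested genes, 286 genes differed between the ages, 152 of them (0.888% of those tested) lower and 134 (0.783%) higher at 16 months.

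The 3 C1q genes lie side by side within 18.7 kb on the minus strand of chromosome 4 (GRCm38), C1qb at chr4:136880129-136886187, C1qc at chr4:136889804-136893065 and C1qa at chr4:136895917-136898803. C4b at chr17:34728380-34743882 and C4a at chr17:34809092-34823464 are copies of each other 65.2 kb apart in the histocompatibility region, and C3 lies elsewhere on the same chromosome at chr17:57203970-57228136. C3ar1 is at chr6:122847138-122856161, C5ar1 at chr7:16246743-16259540 and Serping1 at chr2:84765387-84775444, all on the minus strand as well. No exon of the 9 genes overlaps an exon of another annotated gene.

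Promoter sequences from RefSeq (GRCm38.p6; 250 bases before to 50 after the annotated start) were matched for 5 of the 9 genes, C1qb, C1qc, C3, C3ar1 and C5ar1. Those of C3, the component with the largest age difference, and of 2 C1q chains, whose levels lay close together, are shown 5′ to 3′ on the minus strand, at chr17:57228087-57228386 for C3, chr4:136886151-136886450 for C1qb and chr4:136892865-136893164 for C1qc. Capitals mark matches to TATAAA on the gene's strand, to GAGGAA, the core of sites of the myeloid factor PU.1, and to TTNNGNAA, a short form of the sites of C/EBP factors, the latter 2 on either strand.
C3: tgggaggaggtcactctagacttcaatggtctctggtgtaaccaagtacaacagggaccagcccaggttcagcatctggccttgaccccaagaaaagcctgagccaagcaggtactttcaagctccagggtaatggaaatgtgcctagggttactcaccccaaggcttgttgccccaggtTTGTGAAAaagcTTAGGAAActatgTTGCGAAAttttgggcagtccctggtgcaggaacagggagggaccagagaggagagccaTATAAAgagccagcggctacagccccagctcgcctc
C1qb: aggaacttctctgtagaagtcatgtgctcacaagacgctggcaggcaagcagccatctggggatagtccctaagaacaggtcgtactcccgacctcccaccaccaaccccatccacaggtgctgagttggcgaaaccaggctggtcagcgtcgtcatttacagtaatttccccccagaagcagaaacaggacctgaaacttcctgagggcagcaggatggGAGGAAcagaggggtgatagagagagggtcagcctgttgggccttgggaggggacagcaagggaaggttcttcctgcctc
C1qc: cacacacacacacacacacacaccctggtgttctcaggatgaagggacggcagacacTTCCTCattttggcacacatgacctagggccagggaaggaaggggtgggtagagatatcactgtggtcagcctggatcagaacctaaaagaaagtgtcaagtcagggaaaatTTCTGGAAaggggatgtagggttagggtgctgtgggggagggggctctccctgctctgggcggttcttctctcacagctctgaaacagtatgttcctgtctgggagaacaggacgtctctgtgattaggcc
The C3 promoter held 3 matches to TTNNGNAA within the 70 bases before the annotated start and TATAAA 15 bases into the annotated transcript. The C1qb promoter held 1 GAGGAA at −30, and the C1qc promoter 1 at −193 with 1 TTNNGNAA at −81. Of all 32851 promoters of this length, 40.7% held TTNNGNAA, 28.3% GAGGAA and 8.32% TATAAA, and no match to TTCNNNGAA, the form bound by STAT factors and found in 8.30% of all promoters, was present in any of the 5. These are matches of letters, chosen after the sequences had been seen, and binding was not measured.

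Among the components, C4b and C3 fell between 6 and 16 months, and the 3 C1q chains and C4a did not pass the threshold over all genes. C4b encodes the C4 of the mouse classical pathway. Its level was 51.4, 47.9 and 47.4 CPM in the 3 samples of 6 months and 23.3, 19.6 and 21.0 CPM in those of 16 months. The ages stood far apart, and within each age the samples lay within a few CPM of each other. The mean went from 48.9 ± 2.21 to 21.3 ± 1.88 CPM (SD, n = 3 each), 43.6% of the younger level, a log2 fold change of −1.20 (SE 0.073). The fall rested on no single sample, since the log2 fold change stayed between −1.27 and −1.14 when each of the 6 was left out in turn.

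C3, the central component, had 2.26, 1.80 and 1.91 CPM at 6 months and 0.453, 0.351 and 0.527 CPM at 16 months, from 54 to 106 counts against 11 to 18. All samples of 16 months were lower than all of 6 months, and the lowest of them, at 11 counts, was still above 3 counts. The mean went from 1.99 ± 0.241 to 0.443 ± 0.0884 CPM (SD, n = 3 each), 22.3% of the younger level, with a log2 fold change of −2.16 (SE 0.20). With each sample left out in turn it stayed between −2.31 and −2.03.

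C4a, which encodes the sex-limited protein, a copy of C4 with little activity in the classical pathway, had 2.03, 1.77 and 2.48 CPM at 6 months and 1.60, 1.72 and 1.41 CPM at 16 months. The samples of 16 months were all lower, but the highest of them lay just under the lowest younger one. The mean of 1.58 ± 0.160 CPM was 75.4% of the 2.09 ± 0.361 CPM at 6 months (SD, n = 3 each), and the log2 fold change of −0.43 (SE 0.16) did not pass the threshold over all genes. C4a and C4b transcripts were 96.0% identical over 5378 aligned bases, and 16.5% of the 100-base windows of each, the length of a read, occurred unchanged in the other, so a read from these stretches can be assigned to one copy only through its mate. A part of the C4a counts coming from C4b reads was not tested.

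**Figure D1:**
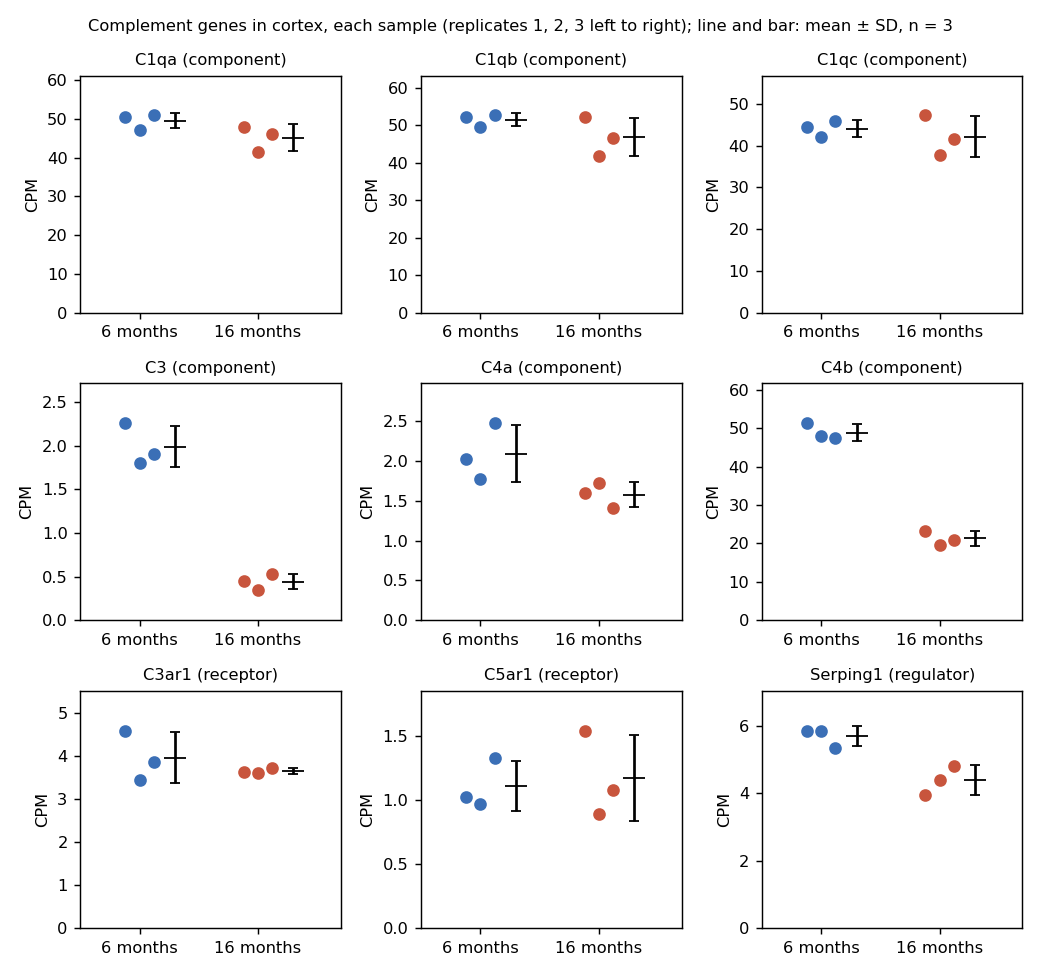
CPM (vertical axes, from 0) of the 9 genes in each sample, 6 months in blue and 16 months in red, with the mean ± SD (n = 3) in black beside the points. The samples of C4b and C3 stand far apart between the ages, those of C4a and Serping1 are separated by narrow gaps, and those of the 3 C1q chains and both receptors overlap.

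The 3 chains of C1q showed overlapping ages and fold changes close to 0. C1qa, the A chain, had 50.5, 47.2 and 50.9 CPM at 6 months and 48.0, 41.4 and 46.1 CPM at 16 months, a log2 fold change of −0.13 (SE 0.067). C1qb, the B chain, had 52.2, 49.5 and 52.7 CPM against 52.2, 41.9 and 46.6 CPM (−0.14, SE 0.078). C1qc, the C chain, had 44.4, 42.0 and 45.9 CPM against 47.3, 37.7 and 41.6 CPM (−0.06, SE 0.081). In all 3 genes replicate 2 of 16 months was the lowest of the 6 samples and replicate 1 the highest of its age, and the chains moved together from sample to sample. These 2 samples are those with opposite tilts of GC content, and the C1q transcripts, with 57.4 to 59.5% GC, were the richest in GC of the 9. The part of GC content in the order of the C1q samples was not tested.

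With offsets for GC content and length, the log2 fold changes of the C1q chains were −0.10 (SE 0.041), −0.11 (SE 0.039) and −0.06 (SE 0.043) for C1qa, C1qb and C1qc. The standard errors were smaller than without the offsets, and the differences stayed small. The fall of C4b was −1.24 (SE 0.043) in this fit and that of C3 −2.21 (SE 0.20). C1qc had the opposite sign, 0.01, without replicate 2 of 16 months, and C1qb passed the threshold without replicate 1 of 16 months, where its log2 fold change was −0.22 and 2.79% of all genes were called lower.

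The levels of both receptors overlapped between the ages. C3ar1, the receptor of the C3a fragment, had 4.59, 3.43 and 3.86 CPM at 6 months and 3.62, 3.60 and 3.72 CPM at 16 months, and its log2 fold change was −0.14 (SE 0.12). C5ar1, the receptor of C5a, had 1.02, 0.967 and 1.33 CPM against 1.54, 0.893 and 1.08 CPM, a log2 fold change of 0.07 (SE 0.23). At both ages 1 sample lay well above the other 2 for C5ar1, which rested on 28 to 56 counts per sample, and without replicate 1 of 16 months its log2 fold change was −0.17. Neither gene passed the threshold, and with this standard error a difference of the size seen in Serping1 would not have been detectable for C5ar1.

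Serping1, the C1 inhibitor, had 5.87, 5.87 and 5.36 CPM at 6 months and 3.95, 4.40 and 4.83 CPM at 16 months. All samples of 16 months were lower, with the highest of them at 4.83 CPM and the lowest younger sample at 5.36 CPM. The mean went from 5.70 ± 0.290 to 4.40 ± 0.440 CPM (SD, n = 3 each), 77.1% of the younger level, and the log2 fold change of −0.37 (SE 0.099) did not pass the threshold. It passed with offsets for GC content and length, at the same −0.37, a setting under which 6.83% of all genes were called lower, and without replicate 2 of 16 months, where 6.4% were.

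In all, 2 of the 9 genes, C3 and C4b, passed the threshold, both lower, where 0.888% of all genes did. The fold change was negative in 8 of 9, with a median of −0.14, against 49.7% and 0.0014 over all genes. In 4 of the 9, C3, C4a, C4b and Serping1, every sample of 16 months was below every sample of 6 months, as in 11.5% of all genes. Since the genes were chosen with this contrast known, these shares describe the 9 and are not independent evidence of their direction.

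**Figure D2:**
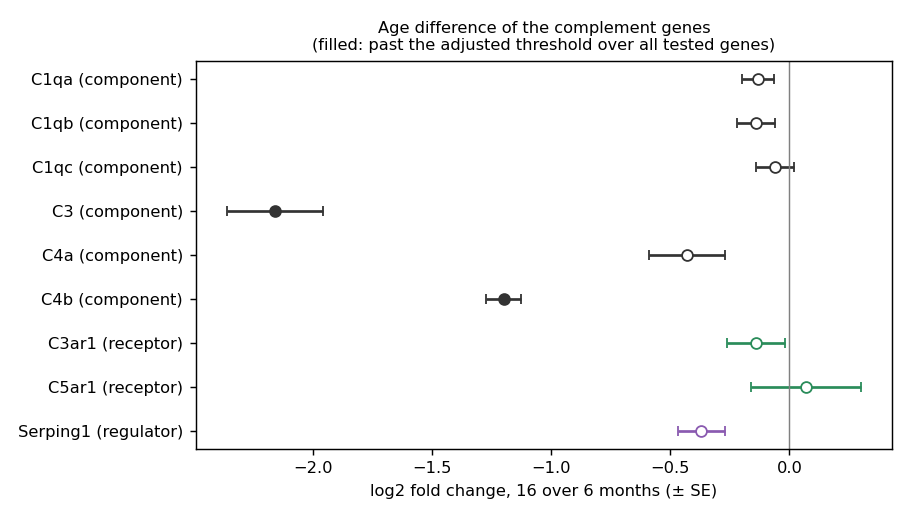
Log2 fold change of 16 over 6 months with its standard error (horizontal axis) for the 9 genes, components in black, receptors in green and the regulator in purple, filled where the gene passed the threshold over all genes tested. C3 at −2.16 and C4b at −1.20 lie apart from the others, which run from −0.43 for C4a to 0.07 for C5ar1.

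Levels of different genes were compared as CPM per kilobase of annotated exon. At 6 months C1qa and C1qb led with 47.6 ± 1.96 and 47.3 ± 1.57, followed by C1qc with 22.8 ± 1.01, C4b with 8.59 ± 0.388, Serping1 with 2.45 ± 0.125 and C3ar1 with 0.920 ± 0.135 (CPM per kilobase, SD, n = 3). C5ar1 with 0.431 ± 0.0771, C3 with 0.387 ± 0.0469 and C4a with 0.337 ± 0.0581 were the lowest. C1qa and C1qb did not differ beyond their spread, nor did C5ar1 and C3, or C3 and C4a, as neighbours in this order. At 16 months C3 had fallen to the last place with 0.0862 ± 0.0172, below C4a with 0.254 ± 0.0258, while C4b with 3.74 ± 0.331 remained between C1qc with 21.9 ± 2.52 and Serping1 with 1.89 ± 0.189.

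The proportions of the C1q chains were steady. The per-kilobase ratio of C1qb to C1qa was 0.994 ± 0.00854 at 6 months and 0.990 ± 0.0428 at 16 months, and that of C1qc to C1qa 0.480 ± 0.00651 and 0.502 ± 0.0251 (SD, n = 3). The latter depends on the length taken for C1qc, and was 0.770 and 0.806 with the longest transcript in place of all exons. The proportions of C4b moved. Its ratio to C4a was 27.7, 29.5 and 20.8 in the samples of 6 months and 15.9, 12.4 and 16.3 in those of 16 months, without overlap, and its ratio to C3 went the other way, from 22.3 ± 1.74 to 44.3 ± 7.44. C3 was thus reduced more than C4b, and C4b more than C4a.

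The rest of the pathway was examined with a list of 53 other complement genes, ordered by function, of which 52 were matched and 35 tested. Of the 35, 2 passed the threshold, both lower (C1s1 and Itgax), where 0.888% of all genes were called lower. Itgax entered the fit through its level at the younger age, so the filter favoured a lower direction for it. With at least 10 counts in every sample Itgax could not be tested, and C1s1 alone passed. Of the 35, 16 had a negative fold change and the median was 0.01. The other 18, mostly genes of liver plasma proteins such as C6, C8a, C8b, C9 and Mbl2, were not tested, and Mbl1, Vsig4 and Cpn2 had no count in any sample.

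Of 6 tested genes of initiation, 1 fell. C1s1, the protease that cleaves C4, had 2.03, 1.93 and 1.74 CPM at 6 months and 0.905, 0.925 and 1.14 CPM at 16 months, without overlap (log2 fold change −0.93, SE 0.16, adjusted P = 0.0211, edgeR). C1ra, the protease that activates it, also had all samples of 16 months lower, at 2.20, 2.36 and 2.17 against 2.73, 3.00 and 2.93 CPM, and did not pass (−0.36, SE 0.11, adjusted P = 0.142, edgeR). Masp1, a protease of the lectin pathway, had 7.43 ± 0.175 and 7.45 ± 0.290 CPM (SD, n = 3). The call of C1s1 was lost without any 1 of the samples of 6 months and without replicate 3 of 16 months, while the fold change stayed between −1.05 and −0.87.

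None of 3 tested genes of C2 and the alternative pathway and none of 3 terminal components passed by edgeR or DESeq2, with 0 and 1 of them at an unadjusted P under 0.05. Cfp, properdin, which stabilizes the C3-cleaving enzyme, had 15.4 ± 0.926 and 15.5 ± 1.96 CPM, and C2 0.949 ± 0.320 and 0.997 ± 0.232 CPM (SD, n = 3). Cfb, factor B, was close to the filter with 0.359 ± 0.105 and 0.488 ± 0.0694 CPM. Among the terminal components, C7 had 1.75, 1.30 and 1.45 CPM against 0.845, 0.893 and 1.02 CPM, without overlap but short of the threshold (log2 fold change −0.72, SE 0.18, adjusted P = 0.0803, edgeR), while C8g (0.05, SE 0.16) and Hc, the gene of C5 (0.11, SE 0.32), overlapped.

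Of 6 other receptor genes, 1 fell. Itgax, the alpha chain of complement receptor 4, had 0.704, 0.567 and 0.667 CPM at 6 months and 0.151, 0.191 and 0.0586 CPM at 16 months, the last from 2 counts (log2 fold change −2.28, SE 0.35, adjusted P = 0.0133, edgeR). It passed the filter on low counts through its level at 6 months, and its call was lost without the same 4 samples as that of C1s1. Itgam, the alpha chain of complement receptor 3 on microglia, had 31.7 ± 0.884 and 32.7 ± 1.37 CPM (log2 fold change 0.04, SE 0.058), and Itgb2, the beta chain that pairs with both, 6.98 ± 0.450 and 6.61 ± 0.843 CPM (−0.08, SE 0.10). Cd93 had 7.07 ± 0.884 and 6.91 ± 0.135 CPM.

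Of 17 tested regulators, none passed by edgeR or DESeq2, 2 had an unadjusted P under 0.05, and the fold changes ran from −0.29 to 0.19. Clu, clusterin, the most abundant of them, had 699 ± 18.2 and 745 ± 52.5 CPM (log2 fold change 0.09, SE 0.060, adjusted P = 0.471, edgeR). Sez6l2 and Sez6l, neuronal membrane proteins with complement control domains, had log2 fold changes of 0.12 (SE 0.092) and 0.15 (SE 0.076). With offsets for GC content and length, C1ra, C7, Csmd3 and Sez6l passed beside C1s1 and Itgax, 6 of the 35 where 14.2% of all genes passed in either direction.

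**Figure D3:**
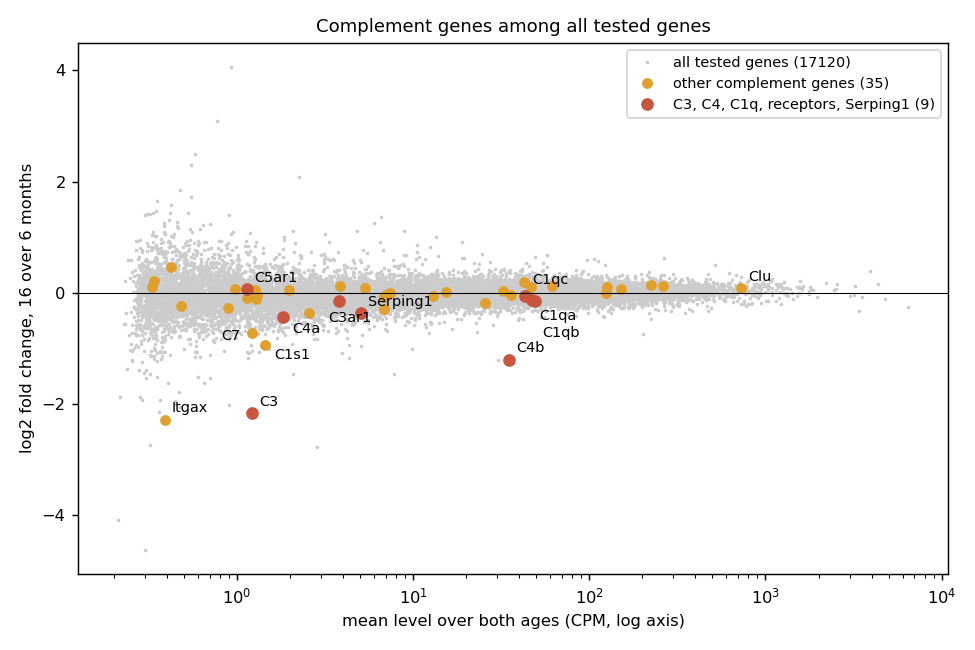
Log2 fold change of 16 over 6 months (vertical axis) against the mean level over both ages (CPM, log axis) for the 17120 genes tested (grey), the 35 other complement genes tested (yellow) and the 9 genes described here (red). C4b and C3 lie at the lower edge of the genes of their level, with C1s1 and Itgax below 0 and the bulk of the pathway around 0.

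Markers of the cells that can make complement were compared at the 2 ages. These lists and those of neighbouring regions were chosen with earlier results of these data known. Over all genes, 0.888% were called lower and 0.783% higher at 16 months. Of 14 microglial markers, 2 fell (Aif1, log2 fold change −0.43, adjusted P = 0.0418, and Tyrobp, −0.36, adjusted P = 0.029, edgeR) and the median was −0.02. Their summed level was 526 to 538 CPM at 6 months and 534 to 542 CPM at 16 months, with Csf1r at 99.3 ± 5.19 and 118 ± 7.51 CPM (SD, n = 3). The sum of the 3 C1q chains, as a percentage of this marker sum, was 27.3, 26.4 and 27.8% at 6 months and 27.4, 22.3 and 25.1% at 16 months, so the ages overlapped, with the lowest value again in replicate 2 of 16 months. None of 7 markers of border macrophages passed by edgeR or DESeq2, with 3 at an unadjusted P under 0.05 (summed level 12.5 to 13.5 against 11.7 to 13.1 CPM, median −0.02, Mrc1 −0.33 and F13a1 0.19). The 9 markers of blood leukocytes were too low to be tested, with a summed level of 0.733 to 0.832 against 0.849 to 1.18 CPM, Ccr2 at 0.289 ± 0.0651 and 0.304 ± 0.0514 CPM, S100a9 at 0.197 ± 0.0932 and 0.174 ± 0.0783 CPM (SD, n = 3) and Ly6g at 0.

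Among 10 astrocyte markers Gfap, an intermediate filament of astrocytes, reactive ones included, fell (log2 fold change −0.47, adjusted P = 0.00332, edgeR), from a mean of 259 to 187 CPM. The list as a whole stood slightly higher at 16 months, with a median of 0.12, a summed level of 7090 to 7760 against 6570 to 6940 CPM, and Slc1a2 and Aldoc at 0.15 and 0.09. Of 10 oligodendrocyte markers Cldn11 and Mal rose (0.28 and 0.35). Ermn (−0.43) and Opalin (−0.19) were lower in every sample of 16 months but did not pass. Of the 10, 4 were negative, Mbp at −0.05 among them, and the median was 0.04. The sum went from 7350 to 7420 CPM at 6 months to 7420 to 7520 CPM. The 10 endothelial and 8 mural markers had no gene past the threshold by edgeR or DESeq2, with 3 and 1 at an unadjusted P under 0.05, medians of −0.02 and −0.10 and sums of 224 to 227 against 217 to 229 CPM and of 123 to 128 against 110 to 120 CPM (Flt1 −0.10, Slco1a4 0.01, Rgs5 −0.19, Pdgfrb 0.03).

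The fibroblast markers lay in the direction of C4b, C3 and C1s1. So did the mural list, with 6 of 8 markers negative and a lower sum without overlap, but none past the threshold. Of 10 fibroblast markers, 2 fell, where 0.888% of all genes did. They were Igf2 (log2 fold change −0.46, SE 0.052, adjusted P = 0.0025, edgeR) and Ogn (−0.58, SE 0.098, adjusted P = 0.0204, edgeR). Of the 10 markers, 9 were negative, with a median of −0.35. Their summed level was 123 to 128 CPM at 6 months and 95.6 to 97.5 CPM at 16 months, without overlap, and Dcn went from 23.2 ± 1.03 to 19.7 ± 0.889 CPM (SD, n = 3). No fibroblast marker had a fold change as far below 0 as that of C4b or C3. The part of the amount of this tissue in the falls of the complement genes was not tested. Nor was that of reactive astrocytes, of which Gfap was the only marker in the lists.

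Markers of neighbouring regions stood higher at 16 months, where 0.783% of all genes were called higher. Since these lists were chosen with earlier results known, their rise is a description and not an independent test. Of 7 tested choroid plexus markers Ttr rose, from 8.95 ± 0.573 to 17.8 ± 1.08 CPM (log2 fold change 1.00, adjusted P = 0.000337, edgeR). Of the 7, 2 were negative, Kl at −0.02 among them, and the median was 0.37. The list sum, of which Ttr was the largest part, was 17.9 to 19.6 against 26.9 to 30.2 CPM. Of 10 thalamic markers 6 rose (median 0.38, sum 244 to 251 against 259 to 296 CPM, with the abundant Rora at −0.05 and Slc17a6 at 0.18). The 6 were Shox2, whose log2 fold change of 4.06 was larger in size than that of C3, Prkcd (0.91), Tnnt1 (0.61), Ramp3 (0.48), Tcf7l2 (0.44) and Plekhg1 (0.32). Of 7 markers of the dentate gyrus 3 rose, Dsp (1.26), Lct (1.12) and C1ql2 (0.86), and the list had a median of 0.25 and a sum of 136 to 141 against 164 to 174 CPM, with the abundant Dock10 at 0.18 and Prox1 at 0.21. The neuronal lists had medians of 0.09 for 10 excitatory markers (sum 5470 to 5720 against 5630 to 6540 CPM, Camk2a 0.13, Slc17a7 0.16) and for 10 inhibitory markers (935 to 960 against 994 to 1040 CPM, Gad1 0.15, Gad2 0.16). None of these passed by edgeR or DESeq2, and 2 of each list had an unadjusted P under 0.05. Pvalb, a gene of one class of inhibitory neurons that is not in this list and was added after its value was seen, fell by 1.21 on the log2 scale (adjusted P = 1.49e-05, edgeR), about as far as C4b. The study itself reports this fall of Pvalb in its sequencing. It also found fewer labelled cells by in situ hybridization and by immunostaining at 16 months. The part of dissection in the values of the complement genes was not tested.

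**Figure D4:**
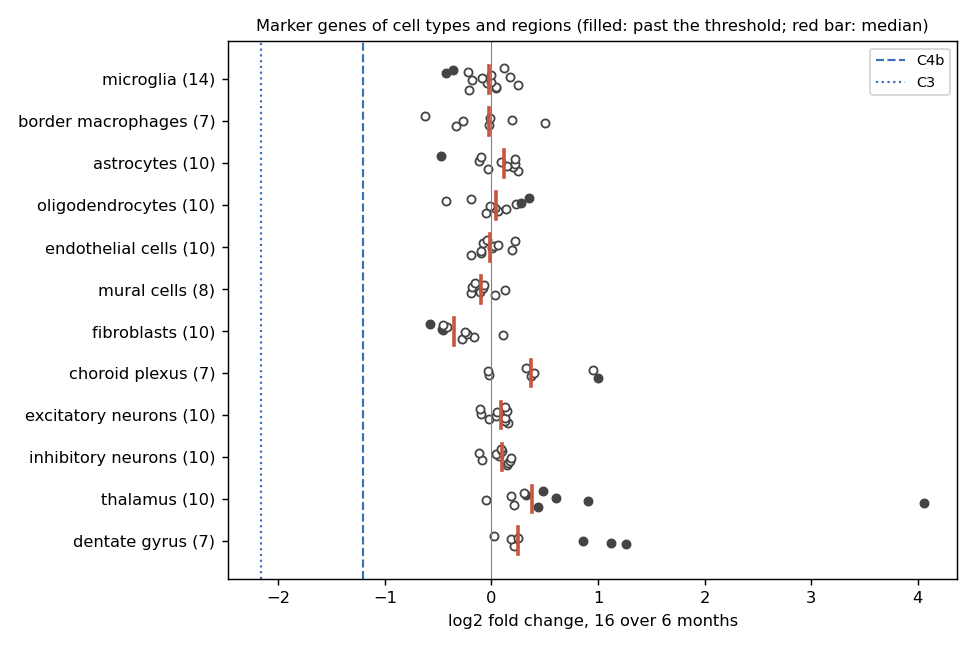
Log2 fold change of 16 over 6 months (horizontal axis) of the tested marker genes of each cell type or region, with the number of genes in brackets, filled where past the threshold and with the median of the list in red; the dashed and dotted lines give C4b at −1.20 and C3 at −2.16. No marker of these lists lies as low as C4b, the fibroblast list has the lowest median at −0.35, and the thalamic and dentate gyrus markers past the threshold lie above 0.

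Each of the 9 age differences was recomputed under 18 alternatives of normalization, filter, test and sample choice. C4b stayed between −1.27 and −1.14 and C3 between −2.31 and −2.03, and both passed the threshold under each of the 18. C4a stayed between −0.51 and −0.28 and passed under none. The sign changed in C1qc and C5ar1 alone, each under 1 alternative.

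**Figure D5:**
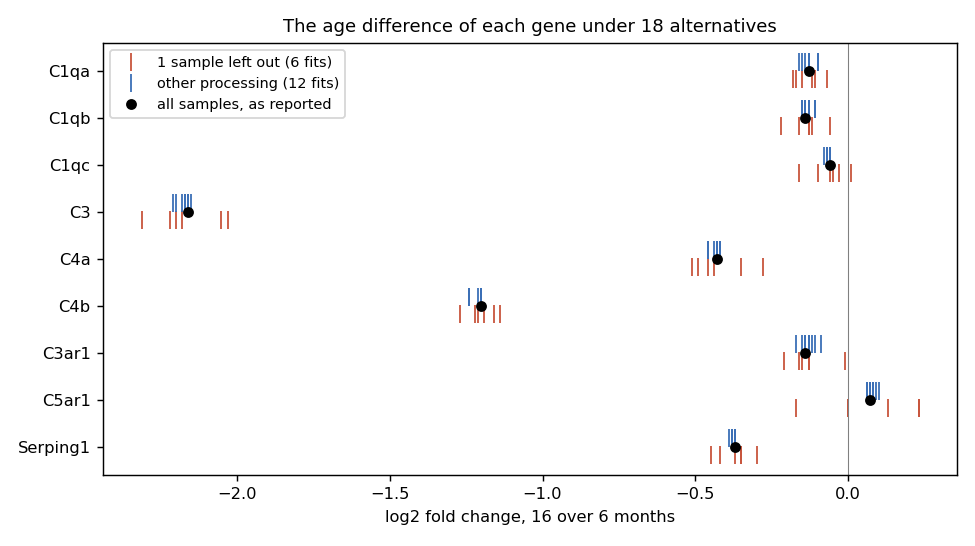
Log2 fold change of 16 over 6 months (horizontal axis) of the 9 genes as reported (black), with 1 of the 6 samples left out (red ticks) and under 12 other ways of processing (blue ticks). The ranges of C3 and C4b stay clear of 0 and of each other, and leaving out samples moves C1qc and C5ar1 across 0.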

How the data were processed

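Whole cortical hemispheres of C57BL/6 mice were analysed, 3 samples at 6 months and 3 at 16 months. The authors aligned paired reads of 100 bases to the mouse genome mm10 (GRCm38) with STAR and deposited raw counts per Ensembl gene, 1 column for each sample, without normalization. The submitters' processing notes name CASAVA 1.8.2, STAR 2.3.0e and featureCounts 1.5.0-p1, whereas the study names HTSeq, and the files end with summary lines in the form of HTSeq. Annotation release and strand setting are not given in the sources used here. Reads without a unique position were not counted, which can lower C4a and C4b. The summary lines were left out of library sizes (22.0 to 27.7% of counted or unassigned reads fell in no gene).

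Of 38355 genes, 36602 were matched by identifier to GENCODE annotation of GRCm38. Counts were fitted with edgeR 4.0.16 in R 4.3.3 (TMM, filterByExpr, quasi-likelihood test, Benjamini-Hochberg adjustment at 0.05 over 17120 genes, no covariate), with DESeq2 1.42.0 as an alternative. CPM used TMM library sizes, and log2 levels a prior count of 2. Offsets for GC content and length were each sample's median deviation in 20 bins of either. C4a and C4b were aligned with blastn 2.17.0. On simulated counts for the 17120 genes, 89% of genes changed by 1 on the log2 scale were recovered and 1.78% of calls were false. The simulation gave each gene the same spread at both ages and no tilt with GC content, unlike the data. It therefore does not give the false share among the calls of this comparison. Recovery of smaller changes is not given here.

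The genes and all lists were chosen with earlier results of these data known. Named were the 9 genes, other complement genes past the threshold or among the 3 most abundant of their class, the 2 most abundant markers of each list (some of these are not reported here), and the genes most correlated with C4b, C3 and C1q. C1ra and C7 are in the abundance rule. The promoter motifs, the neighbours within 100 kb, the ratio of C1q to microglial markers and the marker genes named for having passed were chosen after values were seen. P-values measure the spread between the 3 samples of an age, which may be technical. Counts of genes at an unadjusted P under 0.05 stand without the share of all genes at that P. They do not show whether a list lies above or below it.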

Additional observations from a re-analysis of the deposited data

How the results depend on the processing

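C3 and C4b kept their direction and passed under all 18 alternatives, and of the 9 genes 2 passed under most of them, 2 to 3 when 1 sample was left out, and 4 with GC and length offsets and the replicate block together, where C1qb (log2 fold change −0.11, SE 0.034) and Serping1 passed beside them. The count over all genes moved far more. Against 286 genes, 648 passed without the filter, 783 with the replicate block, 2433 with GC and length offsets, 3318 with these offsets and the block, 470 with the Wald test of DESeq2, and 48 to 2211 with 1 sample left out, the 2 highest counts without replicate 1 (995) or 2 (2211) of 16 months. The split of 134 higher and 152 lower became 114 and 177 under upper quartile normalization. Of the other complement genes, 1 instead of 2 passed with at least 10 counts in every sample, where Itgax could not be tested, 6 with the offsets, 8 with offsets and block, and 0 to 6 with 1 sample left out. C1s1 and Itgax missed the threshold without any 1 sample of 6 months and without replicate 3 of 16 months. Of the 113 markers tested in the main fit, 17 passed, against 27 with the block, 53 with the offsets, 59 with both, and 7 to 36 with 1 sample left out. Over all genes, 14.2% passed in either direction with the offsets, and 3318 of 17120 with offsets and block. The counts of markers, of the 9 genes and of the 35 other complement genes in these 2 fits stand beside those shares. The log2 fold change of C1qc ranged from −0.16 to 0.01 (without replicate 2 of 16 months) and that of C5ar1 from −0.17 (without replicate 1 of 16 months) to 0.23. The cause of these shifts was not tested. Same-numbered samples are different mice, whose deviations correlated with r = 0.180, 0.0958 and 0.0351, and 5 of 6 samples correlated best with their own number. The deviations are taken from the mean of each age, so these matches are not independent. The correlation with GC content had the same sign at 6 and 16 months in replicates 1 (r = 0.160 and 0.588) and 2 (−0.130 and −0.582). Its part in the matches was not tested. The block alone changed no call of the 9 genes. At 11 to 106 counts C3, and at 28 to 56 counts C5ar1, are limited by depth.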

Other observations

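Over the 6 samples, the genes whose log2 levels were most like those of C4b, among 14467 genes of at least 1 CPM on average, were the pseudogene Gm11223 (Pearson r = 0.994), Gfap (0.9935), Spag5 (0.9934), Enpp1 (0.9932) and Mrpl30 (0.9929). Those most like C3 were Upk1b (0.9946), Fermt1 (0.9925), Gem (0.9916), Etv4 (0.991) and Gfap (0.9908). Gfap stood in both lists, and its log2 fold change of −0.47 was smaller in size than those of C4b and C3. For the mean of the 3 C1q chains the nearest genes were Slc16a11 (0.9958), Oxtr (0.9956), Ubxn6 (0.9948), Tnxb (0.9944) and Slc44a2 (0.9914), none of which passed the threshold for age and whose log2 fold changes ran from −0.16 to −0.07. With 6 samples and a large age difference, any gene that differs between the ages correlates with C4b and C3, so these are descriptions without a test. Counts of a pseudogene can hold reads of its parent gene.

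Genes next to the complement genes were examined too. Within 100 kb of C4b, 8 other genes were tested, with log2 fold changes from −0.16 to 0.15, and within 100 kb of C4a 10, from −0.16 to 0.46, C2 and Cfb included. Around C3 there were 5, from −0.33 to 0.52, around the C1q genes 3, from 0.06 to 0.19, and around Serping1 11, from −0.50 to 0.40. Of 46 neighbours of the 9 genes, none passed the adjusted threshold by edgeR or DESeq2, and 9 had an unadjusted P under 0.05 by edgeR. The share of all genes at that unadjusted P is not given here, so the 9 cannot be set against it.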
